A study of Mus musculus with 3 samples.

Results

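The genes that encode the proteins of the cytosolic ribosome were examined in peak lists from chromatin immunoprecipitation with sequencing (ChIP-seq). The genes were chosen by symbol among the protein-coding genes of the mouse annotation GENCODE M1 for the genome build mm9. Symbols starting with Rpl or Rps and a digit were taken, together with Rpsa, Rplp0, Rplp1 and Rplp2, and ribosomal S6 kinases, pseudogenes and read-through or similar entries were left out. The rule took 85 of 22380 protein-coding genes. They comprised 42 genes of the large subunit, 32 of the small subunit, 3 of the stalk, and 8 paralogs or binding proteins. The last class contains Rps19bp1, whose product binds a ribosomal protein and is not itself one. The rule and the classes use symbols only. Paralogs and binding proteins were set apart by the ending of the symbol, so Rps4y2 was counted with the small subunit.

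Chromatin was taken from NE4C cells, an established mouse neural stem cell line, grown in Eagle MEM on poly-L-lysine, and the labels name no added agent. It was precipitated with antibodies to H3K4me3, to homocysteinylated lysine (labelled Hcy, and called KHcy here) and to homocysteinylated lysine 79 of histone H3 (H3K79Hcy). There was 1 library for each of the 3 antibodies, so nothing could be compared with the spread between replicates and no p-value was computed. The 3 groups share the cell line and the culture and differ in the antibody only.

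Ribosomal proteins are assembled with ribosomal RNA into the large and the small subunit, which together translate messenger RNA. Their genes are active in every growing cell, are typically short, and start transcription within a stretch of pyrimidines that is carried into the start of the messenger RNA and links its translation to nutrient signalling. H3K4me3 is a mark of the nucleosomes that flank the starts of active genes. Homocysteinylation of lysine arises from the reaction of homocysteine thiolactone, a product of methionyl-tRNA synthetase, with the side chain of lysine.

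The lists held 19339 peaks for H3K4me3, 7300 for KHcy and 7387 for H3K79Hcy, with 787308, 276864 and 209335 reads in peaks. The median peak held 31, 32 and 23 reads, and the median fold over the background of its library was 2.59, 2.25 and 2.70. The lists give no library totals, and a gene without a peak is only a gene at which the peak caller listed none. Of the neural markers looked for, 3 of the 7 found in the annotation (Nes, Vim and Msi1) had an H3K4me3 peak within 1000 bp of the start, against 0 of 6 markers of other cell types, and Actb and Gapdh had none. Sox2 (1.07 kb) and Gapdh (1.09 kb) lay just past this distance from an H3K4me3 peak, and Gapdh had a KHcy start peak.

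H3K4me3 was listed at few of the ribosomal protein genes. A peak lay within 1000 bp of the start of 18 of the 85 genes (21.2%, 95% Wilson interval 13.8 to 31%), against 13.6% of all protein-coding genes. At the rate of all genes, 11.5 would have had one. The lower end of the interval lay just above the rate of all genes. KHcy peaks were listed at 5 starts (5.88%, 2.54 to 13.0%), those of Rpl4, Rpl9, Rpl32, Rps12 and Rps27a, against 1.6% of all genes. H3K79Hcy peaks were listed at 0 of the 85 starts, which allows a share of up to 3.53% (3 counts of 85, with a Wilson upper end of 4.32%), and 0.88% of all genes had one, so that a lower rate than that of all genes was not detectable. These intervals and limits cover counting error only, and genes are not replicates of a condition.

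The median gene was 3.24 kb long (quartiles 2.42 and 4.69 kb), against 15.4 kb for all protein-coding genes, and 81 of the 85 were shorter than 10 kb. A body of this length leaves little room between the start and the end. An H3K4me3 peak overlapped 17 of the 85 bodies (20%, 12.9 to 29.7%), against 19.7% of all bodies and 10.4% of the 8874 genes shorter than 10 kb. KHcy peaks overlapped 7 bodies (8.24%, 4.05 to 16%), against 9.28% of all and 2.59% of the short genes. The 7 were the 5 with a peak at the start, together with Rpl5 and Rpl38. H3K79Hcy overlapped the body of Rpl4 alone (1.18%, 0.208 to 6.37%), against 7.82% of all bodies and 1.56% of the short ones. Among genes shorter than 10 kb, the share thus lay below the whole interval of the ribosomal protein genes for H3K4me3 and KHcy and inside it for H3K79Hcy. With a stricter score, described below, H3K4me3 was left in 11.8% of the 85 bodies and KHcy in 2.35%. By the centre of the peak, KHcy was also left in 2.35%. No share of short genes is given under either rule.

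**Figure D1:**
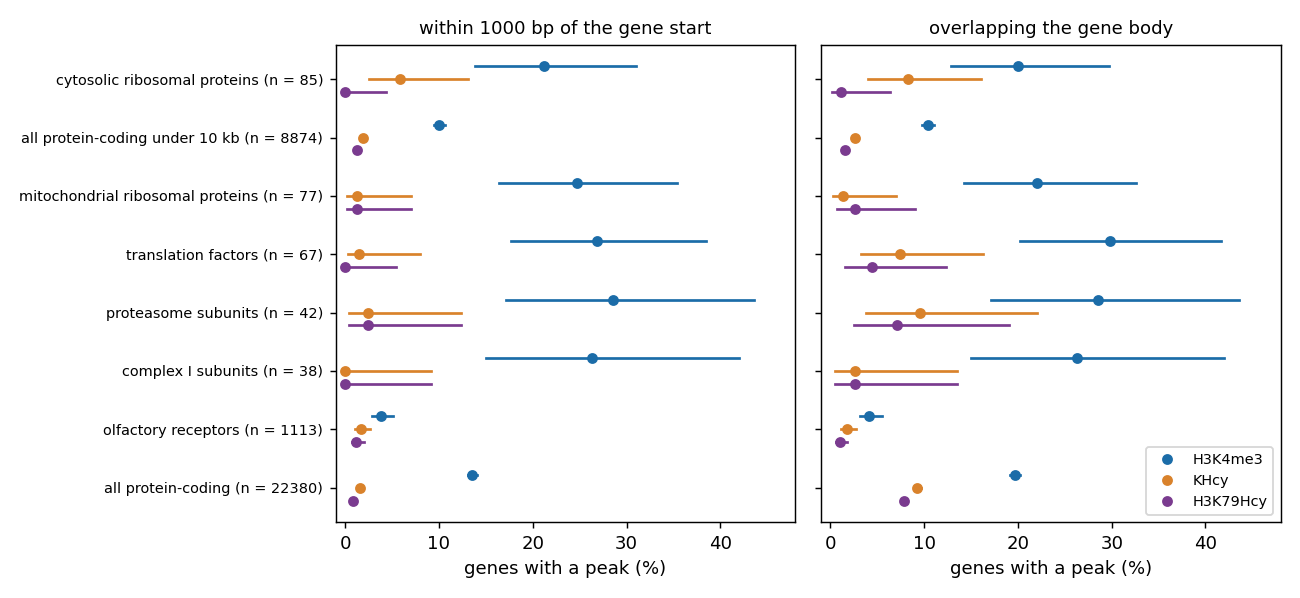
Share of genes (%) with a peak within 1000 bp of the start (left) and overlapping the body (right), for 8 sets of genes and 3 antibodies; points are shares in 1 library and lines are 95% Wilson intervals. H3K4me3 was listed at 21.2% of cytosolic ribosomal protein starts, between 10% for genes shorter than 10 kb and 28.6% for proteasome subunits, and at 3.77% of olfactory receptor starts.

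The DNA around the starts is shown for the 3 genes with the most H3K4me3 reads in a start peak (Rpl4, Rps27l, Rpl30), for 2 others whose start was covered by a KHcy peak (Rps27a, Rpl9), and for the first gene by symbol of each subunit that had no start peak (Rpl10, Rps10). Each sequence is the mm9 genome from 100 bases before to 15 bases after the annotated start, 5′ to 3′ on the strand of the gene. Capitals mark the longest run of C and T that touches the 25 bases before or the 15 bases after the start.
Rpl4 (chr9:64021094-64021208, forward strand): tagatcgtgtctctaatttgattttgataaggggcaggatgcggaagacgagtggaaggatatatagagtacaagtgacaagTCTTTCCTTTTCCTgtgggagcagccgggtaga
Rps27l (chr9:66793793-66793907, forward strand): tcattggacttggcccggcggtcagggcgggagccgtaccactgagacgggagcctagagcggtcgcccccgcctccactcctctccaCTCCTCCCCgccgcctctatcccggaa
Rpl30 (chr15:34373381-34373495, reverse strand): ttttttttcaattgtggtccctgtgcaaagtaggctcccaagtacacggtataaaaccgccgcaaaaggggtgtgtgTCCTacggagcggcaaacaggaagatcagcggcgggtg
Rps27a (chr11:29448095-29448209, reverse strand): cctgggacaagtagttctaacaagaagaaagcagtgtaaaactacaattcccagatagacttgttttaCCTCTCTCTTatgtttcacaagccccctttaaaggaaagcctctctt
Rpl9 (chr5:65782668-65782782, reverse strand): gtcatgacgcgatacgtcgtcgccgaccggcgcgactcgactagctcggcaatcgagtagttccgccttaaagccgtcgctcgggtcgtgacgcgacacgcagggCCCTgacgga
Rpl10 (chrX:71516051-71516165, forward strand): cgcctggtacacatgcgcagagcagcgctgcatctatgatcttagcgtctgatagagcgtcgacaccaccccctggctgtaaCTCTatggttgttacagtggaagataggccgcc
Rps10 (chr17:27773560-27773674, reverse strand): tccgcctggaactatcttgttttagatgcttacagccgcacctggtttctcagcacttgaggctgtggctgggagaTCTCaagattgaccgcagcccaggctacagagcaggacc

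The run was 14 bases long at Rpl4, whose KHcy and H3K4me3 peaks both covered it. It was 10 bases long at Rps27a, 9 at Rps27l, and 4 at Rpl30, Rpl9, Rpl10 and Rps10. At Rps27a the marked run began 32 bases before the start. The longest run there inside the 25 bases on either side of the start was 8 bases. At the genes next by H3K4me3 reads, whose sequences are not shown, it was 5 bases long (Rpl37a), 3 (Rpl7) and 2 (Rps9). Over all 85 genes, a run of 8 or more pyrimidines, counting only bases inside the 25 bases on either side of the start, was found in 27 (31.8%), against 19.4% of all protein-coding genes. The first base was C in 22 (25.9%), against 15.4%. Such a run was found at 10 of the 18 starts with an H3K4me3 peak (55.6%) and at 17 of the 67 without one (25.4%). Over all genes the shares were 18.5% and 19.5%. This split rests on 18 genes with a peak, was made at the cutoff of 8 bases only and has no interval. A link between runs and peaks was not tested. Starts were taken as annotated, so a start placed some bases away from the true one would miss the run.

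The motif TATAAA, searched on the strand of the gene from 40 to 16 bases before the start, was found at 0 of the 85 genes, which allows up to 3.53%, and at 2.37% of all genes. The count covers this window of the annotated starts only, and the sequence shown for Rpl30 holds the motif just upstream of it. The 1000 bp on either side of the start were 52.4% G and C in the median ribosomal protein gene and 51.1% in the median gene. The dinucleotide CpG is depleted from most of the genome but kept in CpG islands. Its observed over expected frequency had a median of 0.686 in these windows against 0.468 for all genes, and was over 0.6 in 67 of 85 (78.8%) against 33.8%. It was over 0.6 at 17 of the 18 starts with an H3K4me3 peak and at 50 of the 67 without one (74.6%). Such a frequency was thus found at most ribosomal protein starts without a listed peak, and at 61.4% of all starts with one.

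Among genes of the large subunit, 11 of 42 had an H3K4me3 start peak (26.2%, 15.3 to 41.1%). The most reads were at Rpl4, which lines the tunnel through which the new protein leaves the ribosome. Its peak held 61 reads (exact Poisson interval 46.7 to 78.4), 2.94-fold over background, and ran from 1393 bp before the start to 1606 bp after it (chr9:64019801-64022800). It also covered the start of Zwilch, a gene on the opposite strand. A peak of this width cannot be assigned to 1 of the 2 starts.

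The next large subunit peaks were those of Rpl30 (46 reads, 3.03-fold), Rpl37a (45 reads, 2.33-fold) and Rpl7 (40 reads, 2.63-fold). The peak of Rpl7 lay 255 bp from the start of Rdh10, which encodes a retinol dehydrogenase and is transcribed the other way. Rpl5, whose product can restrain Mdm2 when ribosome assembly fails, was the only gene of the 85 with separate peaks on each side of the start. The downstream peak held 30 reads (3.10-fold, from 80 to 1479 bp) and the upstream peak 24 reads (1.93-fold, ending 721 bp before the start). Rpl35 had 30 reads (2.17-fold) and Rpl32 had 29 (3.00-fold), and both peaks covered the start.

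The other large subunit genes with a start peak were Rpl23a and Rpl31, each with 26 reads and 2.35-fold, Rpl27 with 23 reads and Rpl8 with 22 reads and 3.19-fold. The fold of Rpl27 was 5.55, above 98.9% of all H3K4me3 peaks, in a peak only 600 bp wide that lay from 389 to 988 bp after the start. Its 23 reads were nevertheless below the median of the list. A high fold in a narrow peak thus came from few reads.

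Among genes of the small subunit, 4 of 32 had an H3K4me3 start peak (12.5%, 4.97 to 28.1%), and this interval overlapped that of the large subunit. Rps9 had 34 reads at 1.89-fold, in a peak that began 206 bp after the start and spanned nearly the whole gene. Rps12 had 28 reads at 2.53-fold, and its peak ended 186 bp before the start. Rps24, a gene mutated in Diamond-Blackfan anaemia, had 26 reads at 3.14-fold. Rps27a, which encodes ubiquitin fused to a small subunit protein, had 18 reads at 3.26-fold, the fewest of any start peak among the 85 genes. Rpsa, which encodes a small subunit protein also described as a laminin receptor, had no start peak, and the nearest H3K4me3 peak was 17.1 kb away.

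Of the stalk, the flexible arm of the large subunit that recruits elongation factors, Rplp0 alone had an H3K4me3 start peak. It held 23 reads at 4.16-fold and lay from 725 to 1524 bp after the start. The nearest H3K4me3 peak was 58.1 kb from the start of Rplp1 and 349.5 kb from that of Rplp2. Of the 8 paralogs and binding proteins, Rps27l and Rpl36al had a start peak. Rps27l, a paralog of Rps27, had 51 reads at 2.46-fold, the second most of the 85, in a peak from 1492 bp before to 1507 bp after the start. Rpl36al had 25 reads at 2.26-fold, in a peak 345 bp from the start of Mgat2. Without the paralogs and binding proteins, 16 of 77 genes had a start peak (20.8%).

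**Figure D2:**
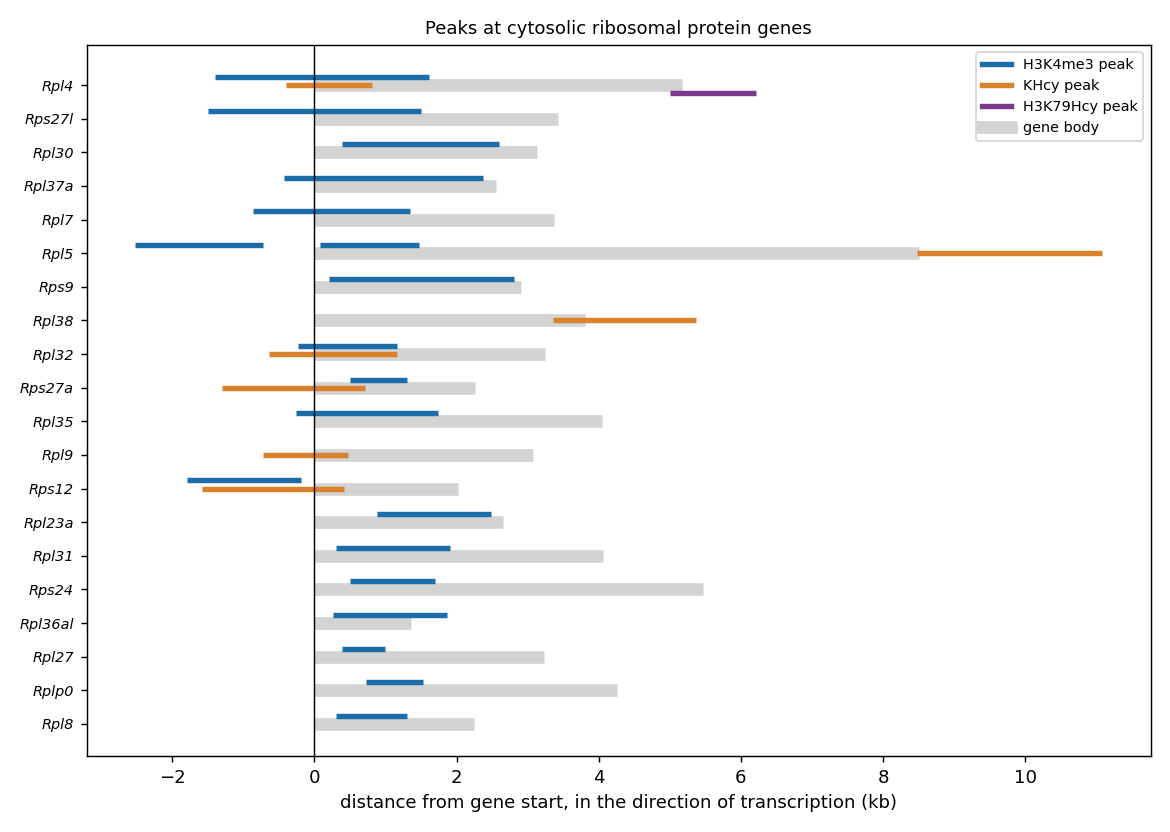
Peaks at the 20 ribosomal protein genes with a peak of any list at the start or in the body; horizontal bars span each peak, in kb from the gene start in the direction of transcription, beside the gene body in grey, 1 library per antibody. Most H3K4me3 peaks begin after the start line, whereas the 5 KHcy peaks at starts cross it.

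The start peaks were of the usual size for the list. The 19 H3K4me3 peaks at the 18 genes held 18 to 61 reads (median 28), were 600 to 3000 bp wide (median 1600 bp) and had a fold of 1.89 to 5.55 (median 2.63). The 2866 H3K4me3 peaks at the starts of all protein-coding genes had medians of 31 reads, 1800 bp and 2.72-fold. A stricter score was passed by 10 of the 19 peaks (52.6%), against 63.9% of peaks at all starts. With the stricter peaks only, 10 of the 85 genes were left (11.8%, 6.52 to 20.3%), against 8.82% of all genes.

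The peaks lay mostly inside the gene. Only 6 of the 19 covered the start itself (31.6%, against 37.1% at all starts), which is 7.06% of the 85 genes (3.28 to 14.6%) against 5.41% of all. The centre lay downstream of the start for 17 of the 19 (89.5%), against 66.1% at all starts, and the median centre was 799.5 bp after the start, against 620.5 bp. The 2 peaks centred upstream were that of Rps12 and the weaker peak of Rpl5. Since a ribosomal protein gene is short, 800 bp after the start is already well inside the gene.

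The profile over distance showed the same. At 800 bp after the start, 16 of the 85 genes (18.8%) lay under an H3K4me3 peak, and at the start itself 6 did. Between 10 and 20 kb away, the median share over positions was 1.18% and the highest 4.71%. For all protein-coding genes the share was 9.50% at its highest, 1000 bp after the start, and 2.05% at 10 to 20 kb. The KHcy profile of the 85 genes was highest at 5 genes (5.88%) around the start, against at most 1.05% for all genes. That of H3K79Hcy was at 0 at the start and reached at most 2 genes (2.35%), at 5200 bp. Its highest share was 0.496% for all genes and 1.01% for the other genes in peak-dense bins. A highest share over positions that rests on 2 genes has no interval here and cannot be read as a difference.

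**Figure D3:**
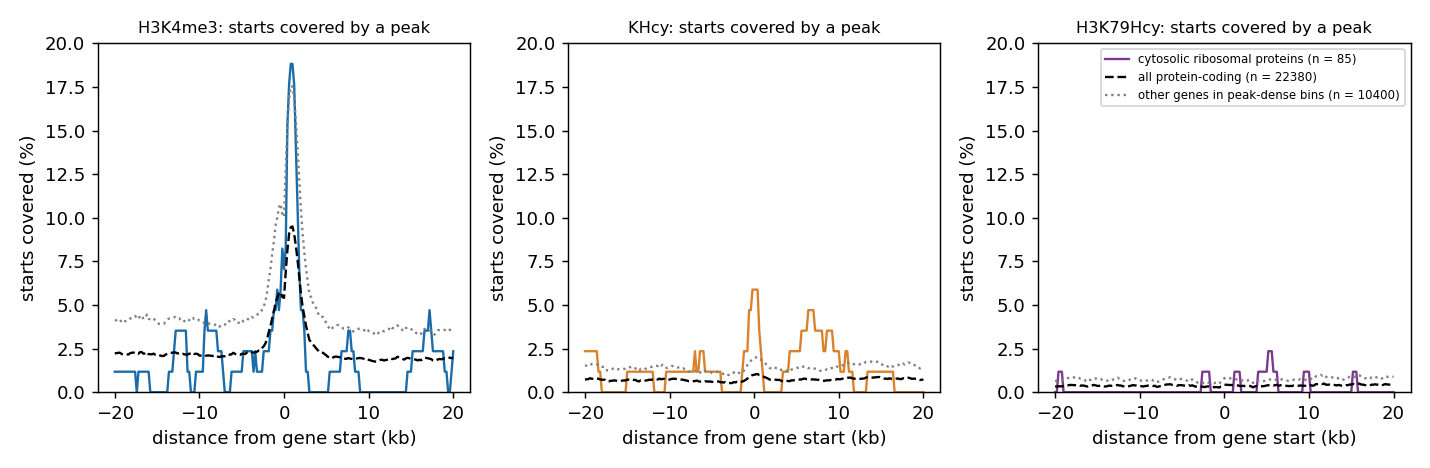
Share of gene starts (%) under a peak at each distance from the start (kb, positive in the direction of transcription), for H3K4me3, KHcy and H3K79Hcy; coloured lines are the 85 ribosomal protein genes, dashed lines all 22380 protein-coding genes and dotted lines the other genes in peak-dense bins. The H3K4me3 line of the ribosomal protein genes rises to 18.8% at 800 bp, against at most 9.50% for all genes and 17.5% for the other genes in peak-dense bins, where 38 of the 85 lie.

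Where no start peak was listed, the nearest peak was usually far away. The distance from the start to the nearest H3K4me3 peak had a median of 62.1 kb over the 85 genes (quartiles 7.40 and 449 kb), against 78.4 kb for all genes. It was over 100 kb for 35 genes (41.2%), against 45.9% of all. Only Rps19bp1, at 3.67 kb, lay between 1 and 5 kb from a peak (1.18%, against 5.02% of all genes), so a wider distance to the start added few genes.

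The 5 KHcy peaks at ribosomal protein starts were alike in size, with 27 to 31 reads. All 5 covered the start, which is 5.88% of the 85 genes (2.54 to 13.0%) against 0.996% of all. At the starts of all genes, 61.3% of KHcy peaks did so. Their fold was 1.95 to 3.36 (median 2.32), and 1 of the 5, that of Rpl9, passed the stricter score (1.18% of the 85 genes, against 0.836% of all). The KHcy peaks at all starts had a median fold of 2.36, and 53.3% passed. The count at ribosomal protein starts therefore rested on 4 peaks below the stricter score.

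Rpl32, a large subunit gene, had a KHcy peak of 31 reads (2.32-fold) from 635 bp before to 1164 bp after the start. Its H3K4me3 peak ended at the same base in the gene and was 1400 bp wide, against 1800 bp. At Rpl4 the KHcy peak of 27 reads (3.03-fold, chr9:64020801-64022000) lay within the H3K4me3 peak and also covered the start of Zwilch. At Rps12 the KHcy peak of 29 reads (1.95-fold) overlapped the H3K4me3 peak upstream of the start and went on to 414 bp after it. At Rps27a the KHcy peak of 31 reads (2.09-fold) lay from 1291 bp before to 708 bp after the start, also covered the start of 1700034F02Rik, and met the H3K4me3 peak only at its downstream end.

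Rpl9, whose product belongs to the large subunit, was the exception. Its KHcy peak of 30 reads (3.36-fold, chr5:65782201-65783400) also covered the start of Lias, the lipoic acid synthetase gene on the opposite strand, and the nearest H3K4me3 peak was 98.5 kb away. Thus 4 of the 5 starts with KHcy had H3K4me3 too (80%), which is 22.2% of the 18 starts with H3K4me3. Over all genes, 179 of the 357 starts with KHcy had both (50.1%), or 5.90% of the starts with H3K4me3.

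The remaining KHcy peaks lay at the 3′ end of the gene. That of Rpl5 held 39 reads (2.02-fold) and began 8480 bp after the start, at the last bases of the gene. That of Rpl38, whose loss in mice impairs the translation of a subset of Hox messenger RNAs, held 33 reads (2.22-fold) and lay 3363 to 5362 bp after the start of a gene 3.81 kb long. Rpl38 had no H3K4me3 peak closer than 54.2 kb. By the centre of the peak, neither lay in the gene.

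H3K79Hcy was listed at Rpl4 alone. Its peak held 27 reads (2.83-fold), passed the stricter score, and lay 5007 to 6206 bp after the start (chr9:64026201-64027400), across the 3′ end of the gene and the start of Snapc5, which encodes a subunit of a complex for the transcription of small nuclear RNAs. Rpl4 was thus the only gene of the 85 with peaks of all 3 lists, the KHcy and H3K4me3 peaks at its start and the H3K79Hcy peak at its end. The starts nearest to an H3K79Hcy peak were those of Rps4y2, at 1.02 kb, and Rpl7, at 3.94 kb, and neither peak overlapped the gene. Of the 85 genes, 20 had a peak of any list at the start or in the body, 5 had peaks of 2 or more lists (Rpl4, Rpl5, Rpl32, Rps12 and Rps27a), and 65 had none (76.5%). No share over all genes is given for these counts, so they cannot be read as particular to ribosomal protein genes.

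Peaks of these lists were crowded in some stretches of the genome, and the location of a ribosomal protein gene went with its peaks. Peak-dense bins were taken as bins of 5 Mb with at least 10 KHcy peaks, and 38 of the 85 genes lay in one (44.7%), close to the 46.6% of all genes. In these bins, 15 of the 38 had an H3K4me3 start peak (39.5%, 25.6 to 55.3%), against 24.9% of all genes and 19.5% of genes shorter than 10 kb there. In the other bins, 3 of 47 did (6.38%, 2.19 to 17.2%), namely Rpl30, Rpl36al and Rps24, against 3.63% of all genes. All 5 KHcy start peaks lay in dense bins, which the choice of bins favours (13.2% of the 38 genes, against 3.16% of all genes there).

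The subunits also differed in location. Of the large subunit genes, 24 of 42 lay in dense bins (57.1%), and of the small subunit genes 10 of 32 (31.3%). Within dense bins, 10 of the 24 large subunit genes (41.7%, 24.5 to 61.2%) and 3 of the 10 small subunit genes (30%, 10.8 to 60.3%) had an H3K4me3 start peak. These intervals overlapped over most of their length.

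By chromosome, the most ribosomal protein genes lay on chromosome 7, with 14, of which 2 lay in dense bins. Of these 14, Rps9 had an H3K4me3 start peak, against 2.32% of all protein-coding starts on that chromosome. The list held 3.34 H3K4me3 peaks per Mb there. None of the 8 genes on chromosome 17 or the 4 on chromosome X (0.180 peaks per Mb) had one, where 4.86% and 0.322% of all starts did. All 3 on chromosome 1 had one (Rpl7, Rpl31 and Rpl37a), against 21.3% of all starts there. Start peaks were listed at 1 of 4 genes on chromosome 12 (1.63 peaks per Mb) and 1 of 2 on chromosome 14 (1.47 per Mb), but at neither of the 2 on chromosome 8 (9.52 per Mb). Over all genes, the shares were 3.27% on chromosome 12, 4.51% on chromosome 14 and 10.5% on chromosome 8. On chromosome 3, where 19.7% of all protein-coding starts had a peak, none of the 4 ribosomal protein genes did, although 3 lay in dense bins. What set the density of peaks along the genome was not tested.

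**Figure D4:**
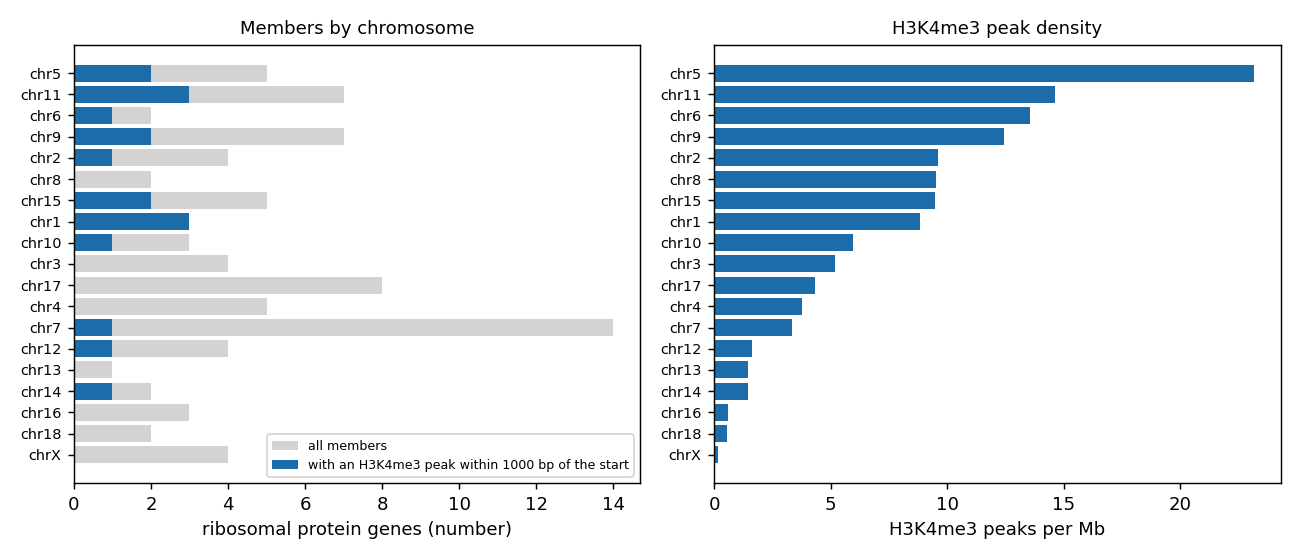
Number of ribosomal protein genes per chromosome (left; all in grey, those with an H3K4me3 peak within 1000 bp of the start in blue) and H3K4me3 peaks per Mb of each chromosome up to the end of its last protein-coding gene (right), in 1 library. Chromosome 7 holds 14 of the genes, 1 of them with a start peak, against 2.32% of all protein-coding starts there. It has 3.34 peaks per Mb, whereas chromosome 5 has 23.1.

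Other sets of housekeeping genes gave shares of H3K4me3 that overlapped that of the cytosolic ribosomal proteins. A start peak was listed at 19 of 77 mitochondrial ribosomal protein genes (24.7%, 16.4 to 35.4%), 18 of 67 translation factors (26.9%), 12 of 42 proteasome subunits (28.6%) and 10 of 38 subunits of respiratory complex I (26.3%). Olfactory receptors, short genes of sensory neurons, had one at 42 of 1113 starts (3.77%, 2.80 to 5.06%). In dense bins the share was 43.6% for mitochondrial ribosomal proteins and 7.02% for olfactory receptors, beside the 39.5% of the cytosolic ones. KHcy start peaks were listed at 1.3% of mitochondrial ribosomal proteins (0.230 to 7%), 1.49% of translation factors, 2.38% of proteasome subunits, 0 of 38 complex I subunits and 1.71% of olfactory receptors (1.10 to 2.65%). The share of the cytosolic ribosomal proteins was 5.88%, and its interval (2.54 to 13.0%) overlapped that of each of these sets.

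Ribosomal protein genes have many processed copies in the genome, to which reads can map equally well. Of the words of 31 bases in the exons, the median gene had 50.9% that occur more than once in mm9 (quartiles 33.3 and 77.4%), against 3.59% for mitochondrial ribosomal proteins. In the 1000 bp on either side of the start, the median was 7.56% against 1.47%, and 33 of the 85 genes were over 10%. The median in the start window was 7.31% for genes with an H3K4me3 start peak and 7.81% for those without, and the upper quartile 9.74% and 12.6%. Over 10% were repeated in 5 of the 18 genes with such a peak and in 28 of the 67 without. In exons the medians were 43.1% and 53.6%. How the aligner placed reads with several matches is not given in the sources used here, and the part of repeated words in the counts was not tested.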

How the data were processed

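ChIP-seq peak lists of 3 libraries of NE4C cells were used. According to the methods and the submitters' processing notes, reads were aligned to mm9 with Bowtie 2 and peaks were called with MACS 1.4.2 and filtered through control input, although a legend names SICER. The authors deposited, for each peak, its position, its length, the count of reads and a score. The counts are not normalised for depth or length, and the columns for a control hold no values. Input and IgG libraries are not analysed here. 0 columns belonged to other samples.

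Positions were converted to count from 1. In the deposited lists, the score of a peak of 1 window (200 bp) is minus the natural log of its Poisson probability, with 1 background rate for the library. The background was solved from 14 (H3K4me3), 8 (KHcy) and 27 (H3K79Hcy) such peaks as 1.38, 1.49 and 1.59 reads per window. Fold is the count of reads over this background for the same length. The stricter score exceeded the lowest of its list by the natural log of 100. A peak was at a start when within 1000 bp of the annotated 5′ end of the gene, and in a body when it overlapped by at least 1 bp. 0 peaks ended past a chromosome of NCBIM37, the same build.

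Values were given for the 10 genes with the most H3K4me3 reads in a start peak, every gene with a KHcy or H3K79Hcy peak, genes with peaks of 2 or more lists, the stalk genes and Rpsa, and paralogs or binding proteins with a peak. The other genes with a start peak, the genes nearest to a peak and the KHcy genes whose sequence is shown were added after their values were seen. Members and lists were chosen with earlier results of these data known. Markers and other lists were picked by symbol. Shares have 95% Wilson intervals, the limit for a count of 0 is 3 counts of the total, and no test was run. Alternatives were a peak covering the start, 2000 bp, the start of any transcript, the centre of the peak in the body, the stricter score, the 7300 peaks of largest fold, dense bins, omission of paralogs, and the lowest reads per window as background. Overlaps of intervals with peaks, tested on simulated data, differed from a direct count in 0 of 12000 queries. The tools were Python 3.11.15, numpy 2.4.6, pandas 2.3.3, scipy 1.17.1 and matplotlib 3.10.9.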

Additional observations from a re-analysis of the deposited data

How the results depend on the processing

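Of 38 alternative values for 7 results, 23 stayed close to the value given and 15 moved. The H3K4me3 start share (21.2%) was 7.06% for peaks covering the start, 11.8% with the stricter score, 10.6% among the 7300 peaks of largest fold and 39.5% in dense bins. The H3K4me3 body share (20%) was 11.8%, 10.6% and 36.8% under the last 3 of these. KHcy start peaks (5.88%) were left at 1.18% with the stricter score and stood at 13.2% in dense bins. KHcy in bodies (8.24%) was 2.35% by the centre of the peak, 2.35% with the stricter score and 15.8% in dense bins. H3K79Hcy start peaks (0) were at 1.18% within 2000 bp. H3K79Hcy in bodies (1.18%) was 0 by the centre and 2.63% in dense bins. Fewer peaks or genes enter each of these by construction, except for the wider distance. Over all genes, the H3K4me3 start share was 5.41% for peaks covering the start, 8.82% with the stricter score and 24.9% in dense bins. KHcy start peaks were at 0.836% of all genes with the stricter score and 3.16% in dense bins. Body shares of all genes in dense bins were 35.4% (H3K4me3), 18.2% (KHcy) and 15.2% (H3K79Hcy). The median gene there was 16.8 kb long, against 3.31 kb for the ribosomal protein genes there, so these bodies are unlike in length. Among genes shorter than 10 kb in dense bins, the body shares were 19.98% (H3K4me3), 5.30% (KHcy) and 3.12% (H3K79Hcy). The intervals of the ribosomal protein genes there were 23.4 to 52.7%, 7.44 to 30.4% and 0.466 to 13.5%. For the other settings no share of all genes is given. The median fold of the H3K4me3 start peaks (2.63) was 1.82 with the lowest reads per window as background. No paired analysis was possible because each antibody has 1 library. Without replicates or total reads per library, an absent peak cannot be told apart from a shallow library.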

Other observations

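Of the genes of ribosomal components that the symbol rule leaves out, the values of Fau and Gnb2l1 are given. Fau, which encodes a ubiquitin-like protein fused to Rps30, and Gnb2l1, which encodes the scaffold Rack1 on the small subunit, each had an H3K4me3 start peak, and Gnb2l1 also had a KHcy peak in its body.

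Many ribosomal protein genes carry small nucleolar RNAs in their introns, which guide the modification of ribosomal RNA. The annotation placed 58 of them in 30 of the 85 genes. An H3K4me3 start peak was listed at 6 of these 30 hosts (20%, 9.51 to 37.3%) and at 12 of the other 55 genes (21.8%, 12.9 to 34.4%). KHcy start peaks were listed at 3 of the 30 hosts (Rpl4, Rpl32 and Rps12) and at 2 of the 55.

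Of 107 annotated pseudogenes named after a ribosomal protein gene, 4 overlapped an H3K4me3 peak (3.74%, 1.46 to 9.22%), namely Rpl38-ps2, Rps25-ps1, Rpl12-ps2 and Rpl9-ps1, against 2.55% of all 5209 annotated pseudogenes. None overlapped a KHcy or an H3K79Hcy peak, which allows up to 2.80% for each, and 0.921% and 0.768% of all pseudogenes did.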
